A study of Bactrocera dorsalis with 4 samples.

Results

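MiR-9, miR-79 and miR-306 are conserved miRNAs of flies. The members described here were all miR-9 names (with any letter) and the miR-79 and miR-306 names that the authors' 4 lists of known miRNAs mark as Yes or Diff in their miRBase column, on any arm of the hairpin. Yes and Diff are the authors' marks for a sequence found in miRBase and for one that differs from its miRBase entry. This gave 9 names of the 165 known names with these marks, namely miR-9a-5p, miR-9a-3p, miR-9b, miR-9b-5p, miR-9b-3p, miR-9c-5p, miR-9c-3p, miR-79 and miR-306-5p. They stood for 13 of the 237 distinct known sequences. The rule used names only and no measured value.

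Small RNA was sequenced from adult oriental fruit flies (Bactrocera dorsalis) aged 12 days, in 1 library each of ovaries, testes, female bodies without ovaries and male bodies without testes. The bodies are called females and males below. The flies had been separated by sex as virgins at emergence, and the number of flies per library is not given in the sources used here. With 1 library per condition, no test between libraries was possible. The lists give names, sequences, positions and marks but no amounts, so the depth behind a single miRNA cannot be read from them. Absence from a list was read as not listed and not as a level of 0. Of the miRNAs known from the Drosophila ovary, 3 of 3 were listed in all 4 libraries, and of 6 known from the Drosophila testis, 2 were listed in ovaries, 2 in testes, 2 in females and 1 in males, so these lists of names do not separate the tissues. MiR-1 of muscle and miR-124 of the nervous system were listed in every library.

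A miRNA is cut from a hairpin precursor, whose 5p and 3p arms can each give a mature strand of about the same length. The strand that is loaded into an Argonaute protein finds its targets mainly through the seed, bases 2 to 8, so miRNAs with the same seed can share targets, and the arms of 1 hairpin have different seeds. In Drosophila, miR-9a limits the number of sense organ precursors by acting on senseless, and the 3p seeds of miR-79 and of miR-4 are complementary to the Brd box, a short element in the 3′ ends of Notch pathway mRNAs. Also in Drosophila, the genes of miR-9c, miR-306, miR-79 and miR-9b form a cluster, and miR-306 acts on bam, a gene that controls germ cell differentiation. These roles are background and were not tested here.

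The mature sequences are shown because the seeds group the members differently from their names. The letters are those of the lists, which write T for U, and the seed is in capitals. Forms of the 5p arm of miR-9, all with the seed CTTTGGT, were as follows.
miR-9a-5p, 23 nt: tCTTTGGTtatctagctgtatga
miR-9b-5p, 22 nt: tCTTTGGTgattttagctgtat
miR-9b, 22 nt: aCTTTGGTgattttagctgtat
miR-9c-5p, 22 nt: tCTTTGGTattctagctgtaga
miR-9c-5p, 23 nt: tCTTTGGTattctagctgtagaa

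On the opposite arm the members fell apart into several seeds, and miR-79 came next to miR-9a.
miR-9a-3p, 22 nt: tAAAGCTAgcttaccgaagtta
miR-79, 22 nt: tAAAGCTAgattaccaaagcat
miR-79, 24 nt: aTAAAGCTagattaccaaagcata
miR-9c-3p, 21 nt: tAAAGCTTttataccaaagct
miR-9b-3p, 22 nt: tAGAGCTTtattaccaaaaacc

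The 3 remaining sequences were the 5p strand of miR-79 and both forms of miR-306-5p.
miR-79, 21 nt: tTTGGCGCtttagctgtatga
miR-306-5p, 20 nt: cCAGGTACttagtgactctc
miR-306-5p, 21 nt: cAGTTACTtagtgactctcat

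The 13 sequences had 8 seeds. The seed CTTTGGT was that of 5 sequences under 4 names and of no other known or predicted sequence in the deposited tables. AAAGCTA was shared by miR-9a-3p and the 22 nt miR-79, again with no other sequence. The seeds AAAGCTT of miR-9c-3p and AGAGCTT of miR-9b-3p each belonged to 1 sequence only, so the 3p strands of miR-9a, miR-9b and miR-9c had 3 different seeds while their 5p strands had 1. AAAGCTA and AAAGCTT differ at base 8 only. By bases 2 to 7, miR-9c-3p fell together with miR-9a-3p and the 22 nt miR-79, and the seed groups numbered 7. The 21 nt miR-79 had the seed TTGGCGC, which no other listed sequence had.

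On 1 arm, forms of the same name started at different positions and had different seeds in 2 cases. The 24 nt miR-79 starts 1 base further 5′ than the 22 nt form, and its seed TAAAGCT was also that of miR-4-3p, which had 2 listed sequences with it. The 20 nt miR-306-5p had the seed CAGGTAC, and this was shared with miR-275-3p, a miRNA listed in all 4 libraries. The 21 nt miR-306-5p starts 1 base further 3′, also has a substitution within the seed (described with its position below), and had AGTTACT, which was the seed of no other listed sequence. In contrast, the additional forms of miR-9b and miR-9c kept the seed CTTTGGT.

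The letters TAAAGCT, the complement of the Brd box AGCTTTA, were searched in the first 9 bases of each sequence as listed, on that strand only. They were present in 4 of the 13 member sequences, namely miR-9a-3p, both 3p forms of miR-79 and miR-9c-3p. Over all 237 known sequences with the marks Yes or Diff, 6 had them (2.53%), and the other 2 were the forms of miR-4-3p. None of the 215 predicted sequences had these letters there. MiR-9b-3p lacked them. A match of letters describes the sequence and is not a target site.

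The 5p strands of the miR-9 members were alike beyond the seed. The runs TCTTTGGT and TAGCTGTA, each of 8 bases, were common to miR-9a-5p, miR-9b-5p and the 22 nt miR-9c-5p. The second run was also in the 21 nt miR-79. Likeness was measured as edit distance, the number of single-base changes, insertions and deletions between 2 sequences. MiR-9a-5p was 3 edits from the 22 nt miR-9c-5p and 5 from miR-9b-5p, and miR-9b-5p and that miR-9c-5p were 4 apart. The 21 nt miR-79 was 6 edits from miR-9a-5p. Among 3p strands, the 22 nt miR-79 was 5 edits from miR-9a-3p and 5 from miR-9c-3p, closer to each than miR-9a-3p and miR-9c-3p were to each other, with 7. It was 7 edits from miR-9b-3p. The members of different miR-9 letters were therefore 3 to 6 edits apart on the 5p arm and 6 to 9 on the 3p arm. MiR-306-5p was 11 to 14 edits from every member of another number. Opposite arms of 1 hairpin were as far apart, with 13 edits between miR-9a-5p and miR-9a-3p and 14 between the 21 nt and 22 nt miR-79. The 20 nt miR-306-5p shared a contig with miR-9b, miR-9c and miR-79, as described below, and the 21 nt miR-306-5p did not.

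**Figure D1:**
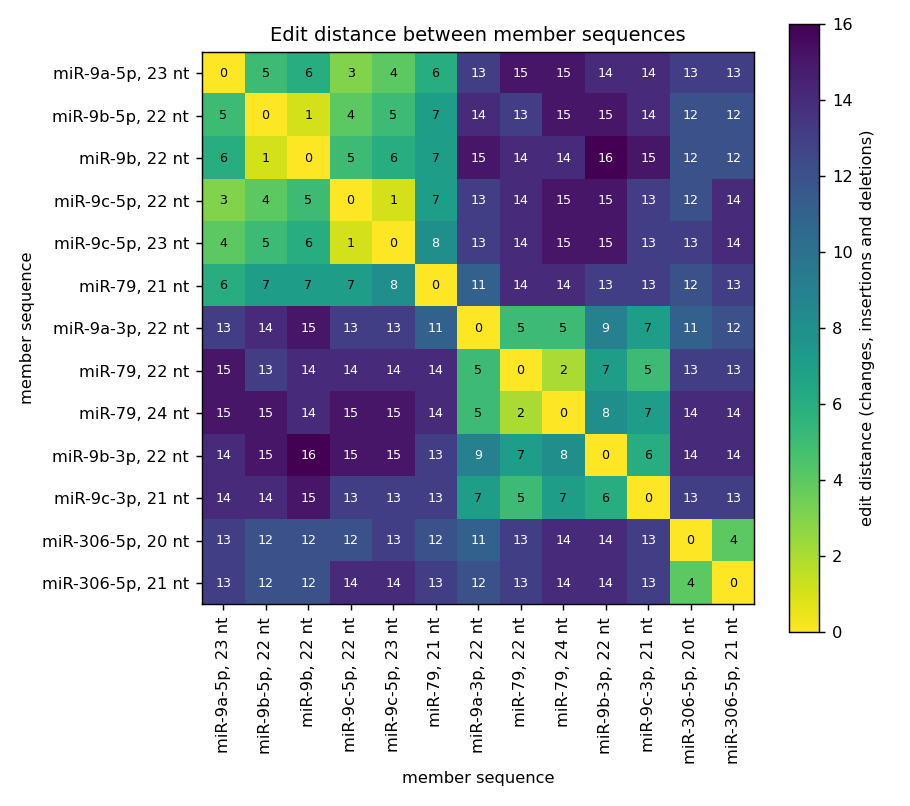
Edit distance between the 13 member sequences, each with its name and length in nt, where darker cells are more distant. The 5p strands of miR-9 and the 21 nt miR-79 form a block of low values at the upper left, the 3p strands of miR-9 and miR-79 form a second block, and the 2 forms of miR-306-5p are close only to each other, with 4 edits.

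Of the 13 sequences, 9 started with T, 2 with A and 2 with C, and none with G. Over all 237 known sequences the share of T at the first base was 53.6%. The 2 member sequences that started with A were miR-9b and the 24 nt miR-79, both of them additional forms of a member that also has a form starting with T.

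The positions put 10 of the 13 sequences on 1 contig of the B. dorsalis genome, JFBF01000027.1, all on the minus strand. They had 7 listed hairpin positions there, which merged into 4 loci where they overlapped. Read in the 5′ to 3′ direction of that strand, the order was miR-9c, miR-306, miR-79 and miR-9b. The miR-9c locus reached from 1324087 to 1324214, that of miR-306 from 1321840 to 1321903, that of miR-79 from 1321195 to 1321315 and that of miR-9b from 1320107 to 1320244. The 4 loci covered a span of 4108 bases. Between miR-9c and miR-306 lay 2183 bases, between miR-306 and miR-79 lay 524, and between miR-79 and miR-9b lay 950. No other known miRNA was listed on this contig. Each of the 4 loci thus had another known locus with a start within 10000 bases. The same held for 30 of the 113 known loci on B. dorsalis contigs (26.5%), these 4 included. The gene that holds these positions is not given here, since no annotation of this build was used.

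**Figure D2:**
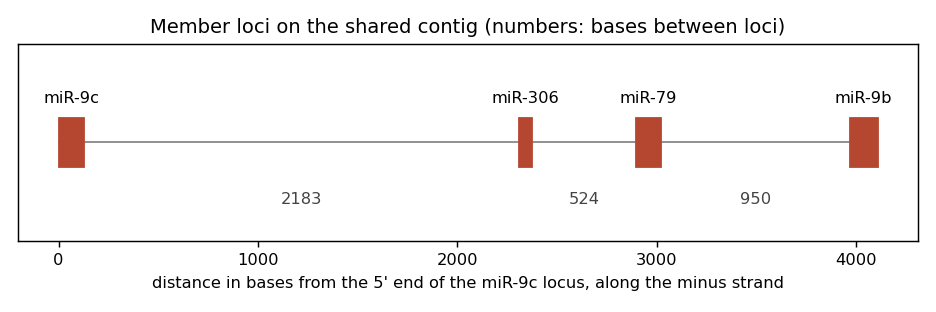
Map of the 4 member loci on contig JFBF01000027.1, drawn to scale as distance in bases from the 5′ end of the miR-9c locus along the minus strand, with the bases between neighbouring loci printed below. MiR-306 and miR-79 are the closest neighbours, with 524 bases between them.

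The remaining sequences carried Drosophila chromosome arm names in place of a contig. Both arms of miR-9a were placed on the plus strand of 3L from 19558231 to 19558308, and the 21 nt miR-306-5p on the plus strand of 2L from 16698404 to 16698488. The build behind the arm names is not given in the sources used here. For miR-306-5p, the same name was therefore placed on a B. dorsalis contig in its 20 nt form and under a Drosophila arm in its 21 nt form. Set along the B. dorsalis hairpin, the 21 nt form fits from base 2 with 2 substitutions, G4T and A21T, where the hairpin's base comes first, then the position counted from 1 at the 5′ end of the form, then the listed base. MiR-9a had no position on a B. dorsalis contig in any of the 4 lists.

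The hairpins are printed because they show which strand lies on which arm. The deposited lists give no hairpin sequence, so those of the study's supplementary list of known miRNAs were used, and their lengths equal those of the listed positions. Listed mature sequences are in capitals, 5′ to 3′.
miR-9c, minus strand of JFBF01000027.1 from 1324087 to 1324172: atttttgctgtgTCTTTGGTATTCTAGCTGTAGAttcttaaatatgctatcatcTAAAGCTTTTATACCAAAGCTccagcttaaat
miR-306, minus strand of JFBF01000027.1 from 1321840 to 1321903: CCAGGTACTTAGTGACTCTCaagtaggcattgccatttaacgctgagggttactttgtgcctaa
miR-79, minus strand of JFBF01000027.1 from 1321247 to 1321315: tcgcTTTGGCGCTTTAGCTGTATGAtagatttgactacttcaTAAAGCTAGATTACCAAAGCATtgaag
miR-9b, minus strand of JFBF01000027.1 from 1320107 to 1320198: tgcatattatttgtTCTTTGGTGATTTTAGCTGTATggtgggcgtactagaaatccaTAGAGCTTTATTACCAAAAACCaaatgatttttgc
miR-9a, plus strand of 3L from 19558231 to 19558308: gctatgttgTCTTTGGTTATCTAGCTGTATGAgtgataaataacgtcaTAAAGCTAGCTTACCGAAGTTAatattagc

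Of these 5 hairpins, 4 had both arms listed, and that of miR-306 had its 5p arm only. The name miR-79 carries no arm in the lists. Its 21 nt sequence lay in the 5p side of the hairpin, at bases 5 to 25 of 69, and its 22 nt sequence in the 3p side, at bases 43 to 64. By place, miR-79 was thus a further pair of arms under a single name. Between the listed arms lay 16 bases in miR-9a, 17 in miR-79, 20 in miR-9c and 21 in miR-9b. In the hairpins folded anew with RNAfold at 37 degrees, the free energy was -29.0 kcal/mol for miR-9b, -28.5 for miR-9a, -26.6 for miR-306, -25.2 for miR-9c and -22.6 for miR-79. There were 30 base pairs in miR-9b, 29 in miR-9a, 27 in miR-9c, 22 in miR-306 and 22 in miR-79, and 16 to 18 bases of each listed mature strand were paired. The miR-306 hairpin had the highest G and C content, 45.3%, against 31.4% to 37.7% in the other 4. The miR-9a hairpin stands under a Drosophila arm name, so its values are not shown to be those of B. dorsalis. The hairpins ran from 64 bases in miR-306 to 92 in miR-9b, and energies and base pairs were not adjusted for length. More than 1 sequence was listed at 4 of the 9 member positions, and at 56 of the 194 positions of all known names (28.9%).

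Of the contig loci, 3 had a second listed position that overlapped the hairpin printed above and carried 1 additional form. These were miR-9b from 1320146 to 1320244, the 23 nt miR-9c-5p from 1324123 to 1324214 and the 24 nt miR-79 from 1321195 to 1321289. Each of the 3 forms differs from the printed hairpin by 1 substitution. That of miR-9b was T1A at the first base. That of miR-9c-5p was T23A and that of miR-79 was T24A, in both cases at the last base, with the hairpin's base given first.

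Where these forms were placed by their letters in the printed hairpin, the second hairpin held them on the opposite side of its middle. The miR-9b form lay at bases 15 to 36 of 92 in the printed hairpin, in the 5p side, and at bases 61 to 82 of 99 in the second one, in the 3p side. For the 23 nt miR-9c-5p the places were bases 13 to 35 of 86 and bases 55 to 77 of 92, again 5p and then 3p. For the 24 nt miR-79 it was the reverse, with bases 42 to 65 of 69, the 3p side, in the printed hairpin and bases 16 to 39 of 95, the 5p side, in the second. So the 23 nt form named miR-9c-5p lies on the 3p side of the hairpin listed for it. The sequences of the second hairpins were not used here, and a second copy of a form in the bases they do not share with the printed hairpin was not tested. Over all known names, 10 sequences could be placed in a hairpin and in an overlapping second position of the same name, and 6 of them were on opposite sides, these 3 included.

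**Figure D3:**
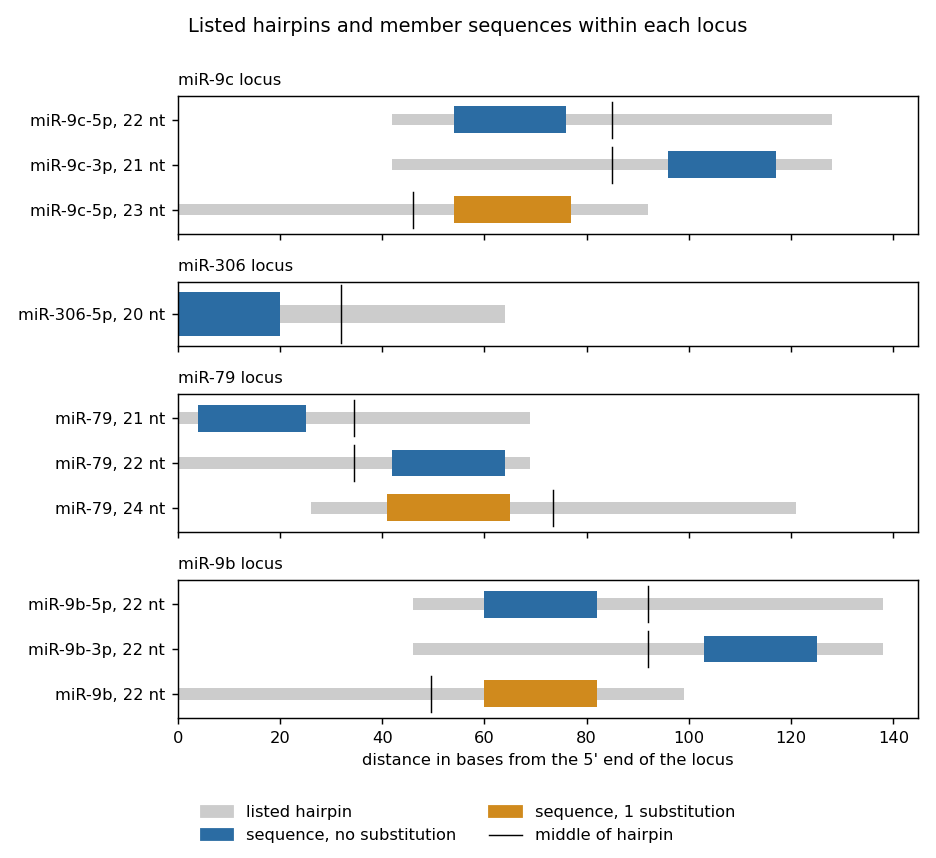
Listed hairpins (grey) and the member sequence listed in each (blue without a substitution, orange with 1) for the 4 loci on the contig, as distance in bases from the 5′ end of each locus, with a black line at the middle of each hairpin. Each of the 3 orange sequences lies on the other side of its own hairpin's middle line than the blue sequence it overlaps.

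Across the libraries, all 9 names were listed in ovaries and in testes, and 8 names in females and in males. By sequence the numbers were 13 in ovaries, 13 in testes, 11 in females and 11 in males. The ovary list and the testis list held the same 13 sequences, and the female list and the male list the same 11. Over all known names with the marks Yes or Diff, the lists held 124 names in ovaries, 136 in testes, 139 in females and 139 in males. The member name not listed in females and males was miR-9c-3p. With entries marked New added, the member names numbered 9 in ovaries, 10 in testes, 9 in females and 9 in males. The added name was mir-79-p3, placed on another contig and sharing a run of at most 7 bases with the miR-79 hairpin.

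Of the 9 names, 8 were listed in all 4 libraries, against 108 of the 165 known names (65.5%). By sequence it was 11 of 13, against 132 of 237 (55.7%). With 1 library per condition and no amounts these shares are a description. All 5 forms of the 5p arm of miR-9 were in every list, and so were miR-9a-3p, miR-9b-3p, both miR-79 sequences of the printed hairpin and both forms of miR-306-5p.

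The exceptions were miR-9c-3p and the 24 nt miR-79. Each was listed in ovaries and in testes, and neither was listed in females or in males. Over all known sequences, 6 of 237 (2.53%) had this pattern, and the other 4 were miR-2a-1-5p, miR-5-3p, miR-959-3p and miR-961-5p. The opposite pattern, both bodies without either gonad, was seen for 19 of the 237 sequences and for 0 of the 13 members. Counted by name, both gonads alone listed 1 of the 9 member names and 4 of the 165 known names (2.42%). Both bodies alone listed 0 of the 9 and 4 of the 165. MiR-9c-3p and the 24 nt miR-79 are both 3p strands by their place in the printed hairpin, and their loci lie on the same contig. The partner strand of miR-9c-3p, miR-9c-5p, was in all 4 lists, and so was the 22 nt miR-79, which the 24 nt form contains. In libraries of gonads and of bodies without gonads, fewer cells that make a miRNA and fewer copies per cell cannot be told apart. A difference in the reads behind the lists was not tested.

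**Figure D4:**
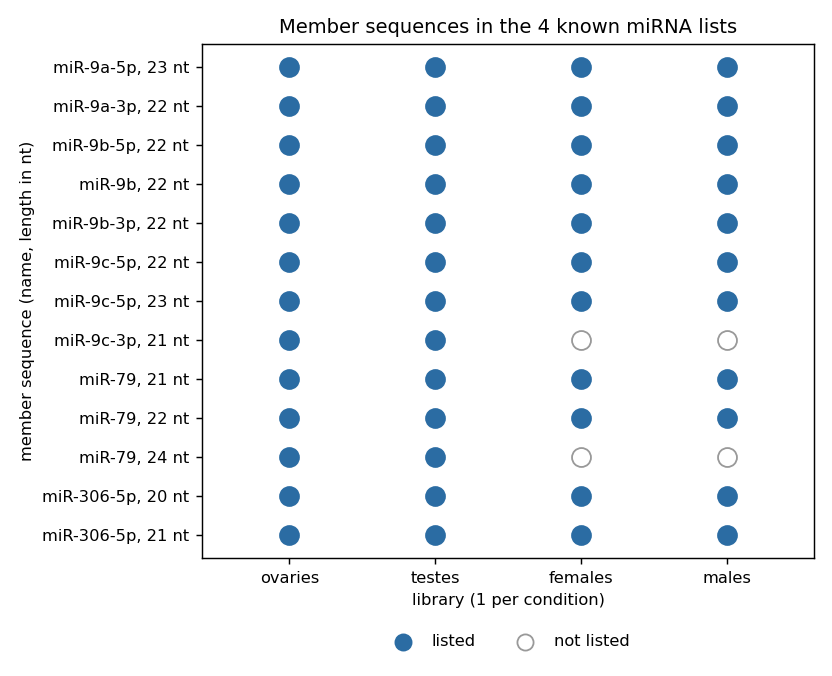
Listing of the 13 member sequences (rows, with name and length in nt) in the 4 libraries (columns), where a filled circle is listed and an open circle is not. Open circles occur for miR-9c-3p and the 24 nt miR-79, in females and males.

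Both arms of miR-9a and of miR-9b were listed in every library. Those of miR-9c were listed together in ovaries and testes, while females and males had its 5p arm alone. By the names alone there were 3 pairs of arms in ovaries, 3 in testes, 2 in females and 2 in males. With miR-79 added by place the numbers were 4, 4, 3 and 3. Both sequences that make the miR-79 pair were in all 4 lists. No list named a 3p strand of miR-306.

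MiR-9a-5p and miR-9a-3p were each given 2 times in every list, in rows with the same sequence, position and mark. These 2 repeats were the only repeated rows in each of the 4 lists, and they were counted once here. For this reason the lists gave 15 rows of members in ovaries, 15 in testes, 13 in females and 13 in males.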

How the data were processed

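The deposited files were 1 list of known miRNAs per library and 1 table of predicted miRNAs for the 4 libraries combined. By the paper's methods, the reads left after adaptor and quality trimming and after screening against mRNA, Rfam and Repbase were matched to miRBase entries and to miRNAs already known from the species, and 1 mismatched base was allowed. Per the labels, the lists came from ACGT101-miR. They hold lengths in nt and positions in bases, and no amounts, so listing was described and nothing was tested.

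Names were matched by number, entries marked New were left out, seeds were bases 2 to 8, and overlapping positions on 1 strand were merged into loci. Hairpin sequences were taken from the supplementary list of known miRNAs and sequences were placed in them without gaps, at the fewest substitutions. All member names were described, with names of the same seed or the letters TAAAGCT, names within 50000 bases on the contig and New entries of the same numbers. Members and lists were chosen with earlier results of these data known. Folding used RNAfold 2.7.2, and tables used Python 3.11.15 and pandas 2.3.3. The functions were tested on simulated data, and 154 of 154 cases passed. For the longest shared run, a case passed when the run found was at least as long as planted. One line of the predicted table is not reported here.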

Additional observations from a re-analysis of the deposited data

How the results depend on the processing

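Of 50 counts and spans recomputed under alternatives, 46 stayed within 1.5 times the reported value. The differences between libraries, such as 9 names in ovaries against 8 in females, lie within the same limit. The count of 46 therefore does not bear on them. With contained sequences merged, the sequences numbered 11 in ovaries, 11 in testes, 10 in females and 10 in males. With entries marked Yes only, the names listed were 6 in ovaries, 6 in testes, 5 in females and 5 in males. With 1 form per name, the seed groups numbered 5 in place of 8, since 1 form was then kept for miR-79 and 1 for miR-306-5p. With starts at most 1000 bases apart, 2 of the 4 loci on the contig had a neighbour, miR-306 and miR-79, since the starts of miR-79 and miR-9b were 1088 bases apart. Folded at 28 degrees, the rearing temperature, the hairpins had energies of -36.06 kcal/mol for miR-9b, -34.9 for miR-9a, -31.45 for miR-306, -31.0 for miR-9c and -27.02 for miR-79. The pairs of arms with miR-79 added by place and the span of the printed hairpins alone, 4066 bases, were chosen after seeing the data. No paired analysis was possible because each condition had 1 library and no test was made. The lists give no reads per entry. The paper gives clean reads per library, with the fewest for ovaries, and these were not set against the listing of any member.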

Other observations

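An entry with a member's number but the mark New, mir-79-p3, was 18 nt long and was listed in testes, females and males, and not in ovaries. It was placed on another contig, JFBF01000065.1, on the minus strand from 1062958 to 1063022. The longest run of bases it shared with the miR-79 hairpin was 7, and with any listed miR-79 sequence 5.

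The table of predicted miRNAs had 6 entries on the contig of the miR-9c, miR-306, miR-79 and miR-9b loci, and 1 of them was within 50000 bases. This was PC-3p-44798_37, on the plus strand from 1319137 to 1319216, with 890 bases between it and the miR-9b locus, on the strand opposite to the 4 members. The next nearest, PC-3p-151436_7, had 263436 bases between it and the loci.

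Outside the members, the 3 sequences that lay on opposite sides of overlapping hairpins of the same name were miR-2a-3p, miR-263a-5p and miR-124-3p. Of them, miR-263a-5p matched its first hairpin with 0 substitutions, while miR-2a-3p and miR-124-3p had 1 each, A23T and G23A, both at base 23.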
